A study of Homo sapiens with 6 samples.

Results

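The 10 genes described here encode the interleukin-6 (IL-6) survival pathway of myeloma, from the receptor to the kinases that act at its end. They are the receptor chains IL6R and IL6ST, the Janus kinases JAK1, JAK2 and TYK2, the transcription factor STAT3, the inhibitors SOCS1 and SOCS3, and the serine/threonine kinases PIM1 and PIM2. The genes were chosen by name as members of this pathway, but with earlier results of these data known. All 10 were among the 11048 gene symbols listed with a value in each of the 6 libraries. RNA sequencing was done on MM1.S, an established human multiple myeloma cell line, so every value comes from 1 line grown in culture medium with serum. The 3 groups were cells treated for 6 h with the vehicle DMSO, with 3 µM CCF642 or with 3 µM CCF642-34, and each group had 2 libraries. CCF642 is an inhibitor of protein disulfide isomerases, the enzymes that rearrange disulfide bonds of secreted proteins in the endoplasmic reticulum, and CCF642-34 is an analogue developed from it. The labels do not say whether the 2 libraries of a group came from separate cultures, so the p-values measure only the spread between these libraries, which may be technical.

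IL-6 binds the receptor chain encoded by IL6R, and the pair then recruits gp130, the signalling chain encoded by IL6ST, which related cytokines also use. The kinases JAK1, JAK2 and TYK2 sit on the inner part of gp130 and phosphorylate it, and STAT3 docks there, is phosphorylated in turn and enters the nucleus. STAT3 induces SOCS1 and SOCS3, which bind and restrain the receptor complex, and it also induces PIM1. PIM kinases need no activating phosphorylation, so the amount of PIM protein follows its synthesis and decay, and PIM2 is known for its high level in myeloma. IL-6 made in the bone marrow is a growth and survival factor for myeloma cells. RNA levels do not show receptor density or phosphorylation, and neither was measured here.

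The libraries held 20567313 to 28459677 reads, and the values are CPM, the reads counted on a gene relative to all reads of its library. Replicate libraries correlated with r = 0.997 or 0.998 across the 9390 genes with a mean CPM of at least 5. Of 10 plasma cell markers, 9 were listed (all but CD27), with a summed level of 5588 to 5682 CPM in DMSO, 5179 to 5229 CPM in CCF642 and 5510 to 5572 CPM in CCF642-34. Within this sum, SDC1 went from 870 and 851 CPM in DMSO to 239 and 252 CPM in CCF642 and 383 and 359 CPM in CCF642-34, TNFRSF17 from 170 and 162 CPM to 72.7 and 71.2 and to 84.9 and 91.7 CPM, and IRF4 from 682 and 657 CPM up to 1127 and 1147 and to 1358 and 1355 CPM. None of 4 B cell markers and none of 6 myeloid markers was listed, 1 of 6 T and NK cell markers (CD3E) lay between 2.09 and 3.19 CPM, and 1 of 3 erythroid markers (HBB) was at most 4.86 CPM. Of 5 stromal and epithelial markers, 4 were listed, and their sum was 6.48 to 7.06 CPM in DMSO, 12.5 to 13.2 CPM in CCF642 and 6.85 to 7.16 CPM in CCF642-34, with COL1A1 making up 8.99 and 10.5 CPM of it in the CCF642 libraries. COL1A1 had 1.09 and 1.495 CPM in DMSO, under the 1.505 CPM that every listed gene reached in some library. It is thus listed only through treated libraries, which limits the reading of the higher sum with CCF642. The part of these low values in the results below was not tested. In bulk RNA of this kind, fewer cells expressing a gene and less of its RNA in each cell cannot be told apart.

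The promoters of the PIM and SOCS genes are shown because both PIM genes were lower and both SOCS genes higher in the treated cells. RefSeq promoter windows were found for all 10 genes, 16 windows in all, each covering 250 bases before and 50 bases after an annotated start on build GRCh38.p14. The 250 bases before the start are printed below, read along the gene's own strand, and capitals mark the octamer ATTTGCAT and the GC box GGGCGG on either strand. PIM2 lies on the minus strand at chrX:48919025-48919274, PIM1 on the plus strand at chr6:37169902-37170151, SOCS1 on the minus strand at chr16:11256205-11256454, and the first SOCS3 window on the minus strand at chr17:78360926-78361175.
PIM2: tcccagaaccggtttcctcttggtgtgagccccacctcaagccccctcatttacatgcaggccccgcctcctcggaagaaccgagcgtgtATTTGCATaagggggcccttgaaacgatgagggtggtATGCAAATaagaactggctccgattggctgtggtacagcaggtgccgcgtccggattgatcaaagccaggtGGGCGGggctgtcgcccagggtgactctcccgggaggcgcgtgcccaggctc
PIM1: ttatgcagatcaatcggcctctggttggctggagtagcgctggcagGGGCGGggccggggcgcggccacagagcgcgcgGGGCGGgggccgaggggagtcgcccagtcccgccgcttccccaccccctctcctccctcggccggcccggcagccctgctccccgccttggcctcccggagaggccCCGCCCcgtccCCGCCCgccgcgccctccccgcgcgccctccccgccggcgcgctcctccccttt
SOCS1: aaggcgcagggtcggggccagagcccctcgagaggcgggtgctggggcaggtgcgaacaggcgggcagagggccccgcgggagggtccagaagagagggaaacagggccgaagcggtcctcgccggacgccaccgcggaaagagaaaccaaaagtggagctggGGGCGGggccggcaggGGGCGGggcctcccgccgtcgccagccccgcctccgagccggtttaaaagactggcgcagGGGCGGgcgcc
SOCS3: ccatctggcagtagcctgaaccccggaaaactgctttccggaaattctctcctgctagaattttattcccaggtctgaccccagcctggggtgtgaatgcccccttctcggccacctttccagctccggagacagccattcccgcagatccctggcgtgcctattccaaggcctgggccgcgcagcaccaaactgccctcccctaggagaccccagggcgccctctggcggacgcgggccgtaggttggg
The octamer is the site read by Oct factors with the B-lineage coactivator encoded by POU2AF1. It occurred in 2 copies before the PIM2 start, whose first bases lie at positions -160 and -123, and in no window of the other 9 genes. Of all 35116 RefSeq promoter windows of this length, 1.774% held it. The GC box occurred before the start in 4 copies in PIM1, 3 in SOCS1 and 1 in PIM2, against 0 in the SOCS3 window printed, and 44.954% of all windows held it. Both motifs were chosen after the sequences had been read. POU2AF1 itself had 619 and 583 CPM in DMSO, 435 and 425 CPM in CCF642 and 495 and 485 CPM in CCF642-34. Whether POU2AF1 or the octamer has a part in the level of PIM2 was not tested.

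Of 7 motifs searched on both strands by a list that was not drawn from these sequences, 2 had a match in the 16 windows. The AP-1 motif TGANTCA matched once in IL6R, at position 38 after the start, and 7.709% of all windows held it. The NRF2 motif TGACNNNGC matched once in JAK1, as TGACGTCGC with its first base 80 bases before the start, and 13.347% of all windows held it. The STAT motif TTCNNNGAA, with 7.657% of all windows, had no match in the 16 windows. Nor was there a match to the CRE motif TGACGTCA (1.848%), the amino acid response motif TTGCATCA (0.866%), the NF-kB motif (1.911%) or the heat shock motif (0.49%). A match describes letters in these windows and says nothing of binding. The SOCS3 windows start 848 and 410 bases from the start that GENCODE gives for the gene. The bases directly before that GENCODE start lie in neither window and were not searched.

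With CCF642, the inhibitors SOCS1 and SOCS3 were higher than with DMSO, as were STAT3 and JAK1, and PIM2, IL6R and PIM1 were lower. With CCF642-34, SOCS1, SOCS3, STAT3 and JAK1 were higher, and PIM2, PIM1, IL6R, IL6ST and TYK2 were lower. Each gene was tested with limma on log2(CPM + 1) after TMM scaling, which sets the libraries on a common scale, and was called at an adjusted p under 0.05 over all 11048 genes. Limma joins each gene's own spread, with 3 residual degrees of freedom, to a spread shared by all genes, with 42.9. The p-values thus rest mostly on the shared spread. With CCF642, 4 of the 10 genes were called higher and 3 lower, in a comparison where 63.1% of all genes were called, 31.8% higher and 31.3% lower. With CCF642-34, 4 were called higher and 5 lower, where 57.6% of all genes were called, 29.7% higher and 27.9% lower. With so many genes called, the sizes say more than the calls. The median size of the log2 fold change, whatever its sign, was 0.49 for the 10 genes and 0.29 for all genes with CCF642, and 0.41 against 0.25 with CCF642-34. The 10 genes were chosen with earlier results of these data known, and SOCS3 is listed only through treated libraries. The larger medians are therefore a description and not independent evidence about the pathway. With at least a 2-fold change and an unadjusted p under 0.05, CCF642 passed SOCS1, SOCS3 and PIM2, and CCF642-34 passed SOCS3, where 6.49% and 3.87% of all genes passed. By direction, 4.50% of all genes passed as higher and 1.99% as lower with CCF642, and 2.59% and 1.29% with CCF642-34. Both comparisons use the same DMSO libraries, so their calls are not independent of each other.

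**Figure D1:**
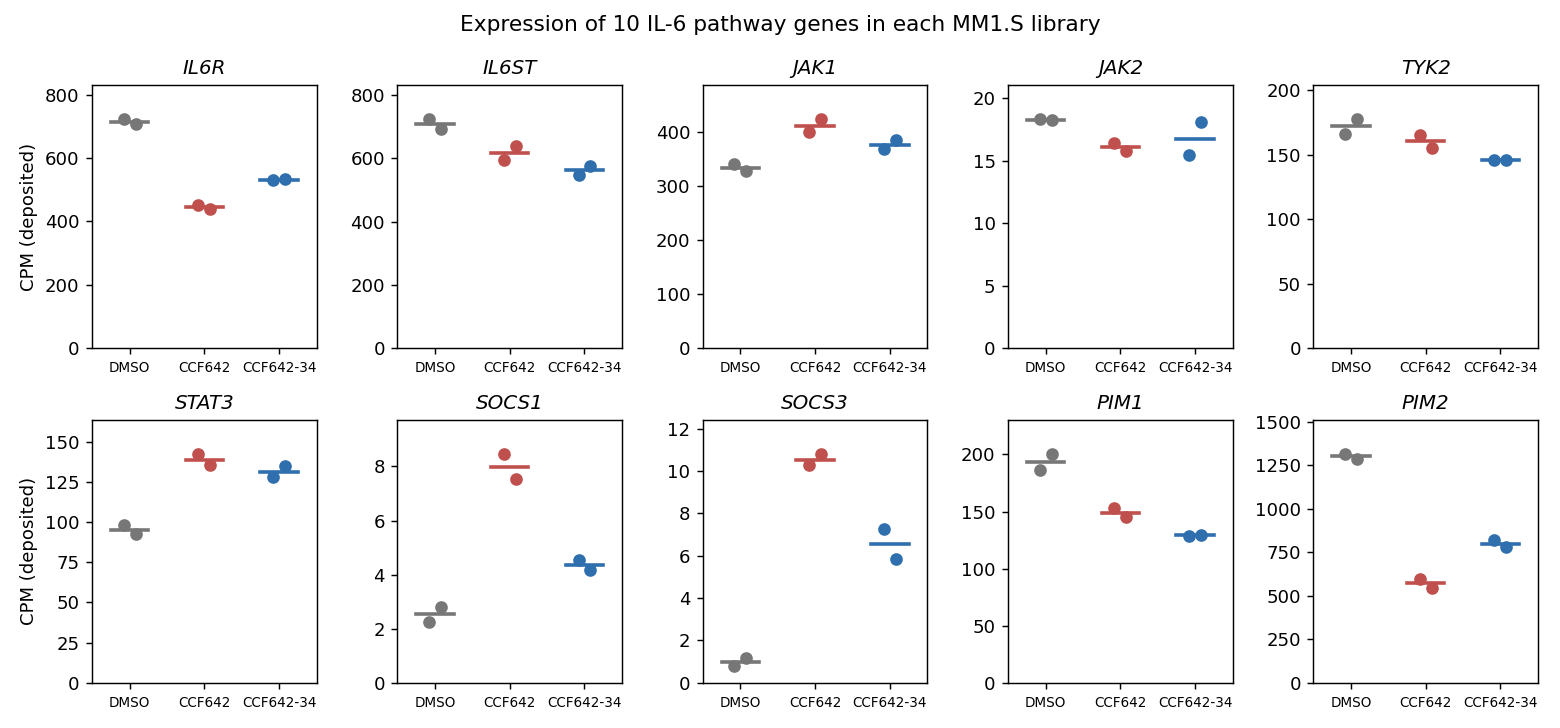
Deposited CPM of each of the 10 genes (vertical axes from 0, a separate scale for each gene) in the 2 libraries of DMSO, CCF642 and CCF642-34; points are libraries and bars are group means. SOCS3 lay at 0.783 and 1.17 CPM in DMSO and at 5.86 CPM or more in every treated library, while PIM2 fell from 1286 CPM or more to 819 CPM or less.

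IL6R encodes the chain that gives the receptor its specificity for IL-6. Its level was 723 and 708 CPM in the DMSO libraries, 451 and 440 CPM with CCF642 and 530 and 533 CPM with CCF642-34. The 3 groups did not overlap, with DMSO highest and CCF642 lowest. As deposited, TYK2 and JAK2 with CCF642 also lay apart from DMSO without being called, so such a gap alone says little. The share of all genes with such a gap was not counted, which limits each gap described for the genes below as well. Group means of IL6R were 715 ± 10.8, 445 ± 7.49 and 532 ± 2.59 CPM (SD, n = 2 each). IL6R fell by 0.55 on the log2 scale with CCF642 (SE 0.037, limma adjusted p = 1.12e-17) and fell by 0.34 with CCF642-34 (SE 0.037, limma adjusted p = 9.58e-11). The gene spans chr1:154405193-154469450 on the plus strand of GRCh38.

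IL6ST encodes gp130, the chain that carries the signal inward. Its level was 724 and 694 CPM in DMSO, 595 and 638 CPM with CCF642 and 548 and 576 CPM with CCF642-34. As deposited, the groups were apart, but after TMM scaling the CCF642 libraries, at 618 and 667 CPM, overlapped with those of DMSO at 687 and 659 CPM. The change with CCF642 was -0.067 on the log2 scale (95% interval -0.15 to 0.012, limma adjusted p = 0.133) and was not called. With scaling by library size alone it was -0.20 and was called (limma adjusted p = 1.67e-05), and without the second CCF642 library it was -0.12 (limma adjusted p = 0.00471). With CCF642-34, IL6ST fell by 0.24 (SE 0.039, limma adjusted p = 6.79e-07). IL6ST spans chr5:55935095-55994993 on the minus strand of GRCh38. Its exons share 797 bases, 8.577% of their length, with an antisense gene that is not listed. The library protocol names no step that marks strand, so reads from the 2 genes cannot be told apart in these bases.

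The 3 Janus kinases differed in their changes. JAK1 (chr1:64833229-64966504, minus strand, GRCh38), the kinase that gp130 relies on most, had 341 and 328 CPM in DMSO, 400 and 424 CPM with CCF642 and 369 and 386 CPM with CCF642-34, and each treated library exceeded both DMSO libraries. JAK1 rose by 0.43 with CCF642 (SE 0.041, limma adjusted p = 8.12e-13) and by 0.26 with CCF642-34 (limma adjusted p = 4.55e-07), on the log2 scale. TYK2 (chr19:10350529-10380676, minus strand), which also serves the receptors of type I interferons, had 166 and 177 CPM in DMSO, 165 and 155 CPM with CCF642 and 146 and 146 CPM with CCF642-34. Its change with CCF642 was 0.033 (95% interval -0.065 to 0.13, limma adjusted p = 0.580), a sign that turned with scaling by library size alone (-0.10). TYK2 fell by 0.15 with CCF642-34 (SE 0.049, limma adjusted p = 0.00910), which was not called when the second DMSO library was left out (-0.099, limma adjusted p = 0.217) or when the second CCF642-34 library was (-0.14, limma adjusted p = 0.0576).

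JAK2 (chr9:4984390-5128183, plus strand, GRCh38), a kinase that many other cytokine receptors use, was the lowest of the 3 kinases per kilobase of exon and did not pass the test in any comparison. It had 18.3 and 18.3 CPM in DMSO, 16.4 and 15.8 CPM with CCF642 and 15.5 and 18.1 CPM with CCF642-34. The 2 CCF642-34 libraries differed by more than the 3 group means did. The change was -0.048 with CCF642 (95% interval -0.26 to 0.16, limma adjusted p = 0.712) and -0.038 with CCF642-34 (95% interval -0.25 to 0.17, limma adjusted p = 0.781), so changes within these intervals were not detectable.

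STAT3 encodes the transcription factor at the centre of the pathway. It had 98.1 and 92.5 CPM in DMSO, 142 and 135 CPM with CCF642 and 128 and 135 CPM with CCF642-34. All 4 treated libraries lay above both DMSO libraries, and the 2 treated groups lay close together. Means were 95.3 ± 3.97, 139 ± 4.93 and 131 ± 4.50 CPM (SD, n = 2 each). STAT3 rose by 0.67 on the log2 scale with CCF642 (SE 0.052, limma adjusted p = 9.21e-16) and by 0.55 with CCF642-34 (SE 0.052, limma adjusted p = 9.20e-13). The gene spans chr17:42313324-42388568 on the minus strand of GRCh38.

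SOCS3, a feedback inhibitor that binds gp130 and blocks the JAK proteins beside it, changed most of the 10 genes. It spans chr17:78356778-78360077 on the minus strand of GRCh38. Its level was 0.783 and 1.17 CPM in DMSO, and it reached 10.3 and 10.8 CPM with CCF642 and 7.24 and 5.86 CPM with CCF642-34. These values rest on 18 and 25 reads in DMSO, 211 and 244 reads in CCF642 and 206 and 163 reads in CCF642-34. The exact (Clopper-Pearson) 95% intervals of the DMSO libraries, which cover counting error only, were 0.464 to 1.24 and 0.756 to 1.72 CPM, below every treated library. Every listed gene reached 1.505 CPM or more in some library, and SOCS3 did so only in treated ones. A gene this low in DMSO is thus listed only if it is higher with a compound, which limits the reading of its fold and rank. As deposited, the mean CPM of SOCS3 was 10.8 times the DMSO mean with CCF642 and 6.72 times with CCF642-34, and after TMM scaling 11.8 and 7.15 times. The log2 fold change was 2.64 with CCF642 (SE 0.165, limma adjusted p = 4.91e-19) and 1.98 with CCF642-34 (SE 0.165, limma adjusted p = 1.64e-14), and SOCS3 ranked 33rd and 47th of 11048 genes by its size. At so low a level the added 1 CPM shrinks the change: on the reads themselves, edgeR gave 3.57 and 2.84, and with 4 CPM added limma gave 1.60 and 1.11.

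SOCS1, which inhibits the JAK kinases directly, also rose with both compounds. It had 2.26 and 2.80 CPM in DMSO, 8.46 and 7.52 CPM with CCF642 and 4.53 and 4.17 CPM with CCF642-34, from 52 to 174 reads a library. The 3 groups did not overlap, and CCF642-34 lay between the other two. As deposited, the mean was 3.16 times the DMSO mean with CCF642 and 1.72 times with CCF642-34, and after TMM scaling 3.46 and 1.83 times. SOCS1 rose by 1.46 on the log2 scale with CCF642 (SE 0.163, limma adjusted p = 9.47e-11) and by 0.67 with CCF642-34 (SE 0.163, limma adjusted p = 4.78e-04). With 4 CPM added these were 0.94 and 0.39. SOCS1 spans chr16:11254405-11256200 on the minus strand of GRCh38.

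PIM2 was the most abundant of the 10 genes per kilobase of exon and the one that fell furthest. It had 1314 and 1286 CPM in DMSO, 599 and 543 CPM with CCF642 and 819 and 779 CPM with CCF642-34. The groups were well apart, with the CCF642-34 libraries between the others. Means were 1300 ± 19.6, 571 ± 39.8 and 799 ± 28.4 CPM (SD, n = 2 each). As deposited, 0.439 of the DMSO level was left with CCF642 and 0.614 with CCF642-34, and after TMM scaling 0.482 and 0.654. PIM2 fell by 1.05 on the log2 scale with CCF642 (SE 0.039, limma adjusted p = 6.48e-28), the 183rd largest decrease of 11048 genes, and fell by 0.61 with CCF642-34 (SE 0.039, limma adjusted p = 1.63e-18). The gene spans chrX:48913182-48919024 on the minus strand of GRCh38, directly after the promoter bases printed above.

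PIM1, a kinase of the same family and a known STAT3 target, fell as well, but with the other compound in the lead. It had 187 and 200 CPM in DMSO, 153 and 146 CPM with CCF642 and 129 and 130 CPM with CCF642-34. The 3 groups did not overlap. The gene spans chr6:37170203-37175426 on the plus strand of GRCh38. PIM1 fell by 0.24 on the log2 scale with CCF642 (SE 0.049, limma adjusted p = 3.48e-05) and fell by 0.49 with CCF642-34 (SE 0.049, limma adjusted p = 4.69e-12). PIM3, the remaining kinase of the family, had mean levels of 49.7, 43.3 and 37.0 CPM in DMSO, CCF642 and CCF642-34. Its change was -0.063 with CCF642 (limma adjusted p = 0.462), which was not called, and it fell by 0.33 with CCF642-34 (limma adjusted p = 1.41e-04).

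**Figure D2:**
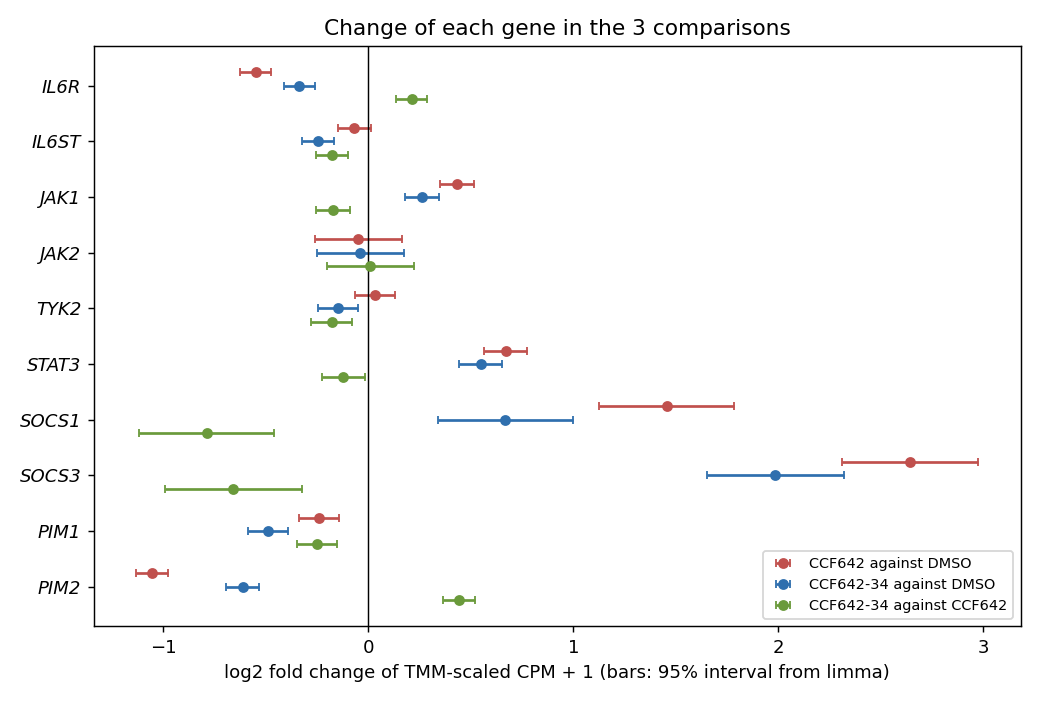
Log2 fold change (horizontal axis) of the 10 genes in the 3 comparisons, as limma estimates on log2(TMM-scaled CPM + 1) with 95% intervals as bars. SOCS3 lies farthest to the right at 2.64 and 1.98 against DMSO, PIM2 farthest to the left at -1.05 with CCF642, and the intervals of JAK2 cross 0 in all 3 comparisons.

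CCF642 and CCF642-34 were given at the same dose for the same time and could be compared directly. With CCF642-34 set against CCF642, IL6R and PIM2 were higher and IL6ST, JAK1, TYK2, SOCS1, SOCS3 and PIM1 were lower, where 33.4% of all genes were called, 15.9% higher and 17.4% lower. None of the 10 genes differed 2-fold between the compounds in limma, where 0.308% of all genes did (0.00905% higher and 0.299% lower). An unadjusted p under 0.05 in limma was reached by 9 of the 10 genes and by 4668 of all 11048 genes. The largest difference under any alternative, edgeR included, was -0.93 for SOCS1. SOCS1 differed by -0.79 on the log2 scale (SE 0.163, limma adjusted p = 1.61e-04) and SOCS3 by -0.66 (SE 0.165, limma adjusted p = 0.00162). The SOCS3 difference was no longer called without the second CCF642-34 library (-0.52, limma adjusted p = 0.070). PIM2 differed by 0.44 (SE 0.039, limma adjusted p = 8.08e-13), the 225th largest increase among all genes, and IL6R by 0.21 (SE 0.037, limma adjusted p = 1.52e-05). For SOCS1, SOCS3, PIM2, IL6R and JAK1 (-0.17, limma adjusted p = 9.97e-04), the CCF642-34 level thus lay between those of DMSO and CCF642. A gene-wise linear model, which uses each gene's own spread alone, called only the IL6R difference. For SOCS1, PIM2, SOCS3 and JAK1 that model gave an adjusted p of 0.0635, 0.0637, 0.116 and 0.143.

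For the other 3 genes called, the level was lowest with CCF642-34. PIM1 differed by -0.25 (SE 0.049, limma adjusted p = 7.36e-05), TYK2 by -0.18 (SE 0.049, limma adjusted p = 0.00349) and IL6ST by -0.18 (SE 0.039, limma adjusted p = 3.94e-04). In the gene-wise linear model none of these 3 differences was called (adjusted p = 0.0906, 0.145 and 0.167). STAT3 and JAK2 were not called. The STAT3 difference was -0.12 (95% interval -0.23 to -0.018, limma adjusted p = 0.0637), and it passed the threshold under DESeq2 size factors (-0.13, limma adjusted p = 0.0472) and without the second CCF642 library (-0.15, limma adjusted p = 0.0351). The JAK2 difference was 0.0098 (95% interval -0.20 to 0.22, limma adjusted p = 0.956). A p that misses the threshold does not show that the compounds act alike on these genes.

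To set the genes against each other, CPM was divided by the exon length of each gene in kilobases, taken from GENCODE. In DMSO the order by mean CPM per kilobase was PIM2 (471), IL6R (111), IL6ST (76.3), PIM1 (65.0), JAK1 (53.0), TYK2 (25.4), STAT3 (10.8), JAK2 (2.96), SOCS1 (1.41) and SOCS3 (0.357). No neighbours in this order overlapped between their 2 DMSO libraries. PIM2 ranked 34th of 10998 genes in DMSO, 92nd with CCF642-34 and 128th with CCF642, and stayed first of the 10 genes in each group. SOCS3 ranked 10433rd in DMSO, 6903rd with CCF642 and 8050th with CCF642-34. With CCF642, JAK1 (65.2) moved above PIM1 (50.1), and the libraries of JAK1 (63.4 to 67.1) overlapped with those of IL6ST (64.1 to 68.7), all in CPM per kilobase. SOCS1 and SOCS3 stood at 4.45 and 3.85 CPM per kilobase with CCF642, both above JAK2 at 2.61. With CCF642-34 they stood at 2.42 and 2.40, below the JAK2 mean of 2.72, and the libraries of all 3 genes overlapped.

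**Figure D3:**
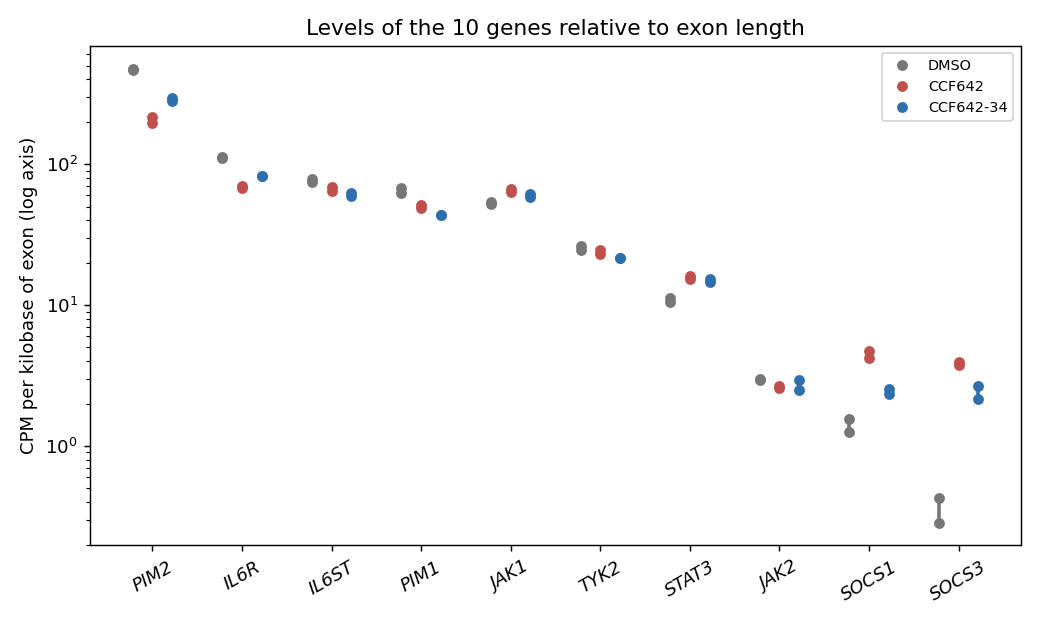
CPM per kilobase of exon (vertical log axis) of the 10 genes, ordered by their DMSO level, with 1 point for each library and a line joining the 2 libraries of a group. PIM2 stays at the top in every group, and the gap between the SOCS genes and JAK2 turns with CCF642 and narrows with CCF642-34.

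Ratios within a library do not depend on library size. PIM2 exceeded PIM1 by 7.59 and 6.92 times per kilobase in DMSO, 4.23 and 4.02 times with CCF642 and 6.86 and 6.48 times with CCF642-34. This ratio was lowest in both CCF642 libraries. IL6R stood to IL6ST as 1.44 and 1.47 in DMSO, 1.09 and 0.993 with CCF642 and 1.39 and 1.33 with CCF642-34, and was again lowest in both CCF642 libraries. SOCS3 stood to SOCS1 as 0.227 and 0.274 in DMSO, 0.797 and 0.943 with CCF642 and 1.05 and 0.923 with CCF642-34. JAK1 stood to TYK2 as 2.20 and 1.98 in DMSO, and this ratio lay between 2.59 and 2.93 in the 4 treated libraries.

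For the 3 genes with the widest range of group means, the genes with the most similar pattern were those with the smallest distance between log2 values centred over the 6 libraries, among 9381 candidates. The closest to SOCS3 were LURAP1L (distance 0.279), JUND (0.319), which encodes an AP-1 subunit, and SQSTM1 (0.344), which encodes the autophagy receptor p62, where the median distance to all candidates was 2.77. In the order DMSO, CCF642 and CCF642-34, the mean levels of JUND were 116, 598 and 444 CPM and those of SQSTM1 were 1004, 4863 and 3523 CPM. Those of SOCS3 were 0.976, 10.5 and 6.55 CPM, a larger rise as deposited. The distances use log2(TMM-scaled CPM + 1), where the added 1 CPM shrinks the changes of low genes such as SOCS3 and SOCS1. Their closest genes may differ with another added value, which was not tried. The closest to SOCS1 were THEMIS2 (0.147), GTPBP1 (0.193) and POLR1E (0.199), with a median distance of 1.49. The closest to PIM2 were TMSB15A (0.104), LSM6 (0.126) and the mitotic cyclin CCNB2 (0.149), with a median distance of 1.10. These are likenesses over 6 libraries in 3 groups, in which the group differences make up most of the pattern.

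Of 13 genes for cytokines and for proteases that shed receptors, 3 were listed. IL6 itself was not listed, and neither were IL11, LIF, OSM, CNTF, CTF1, IL27, EBI3, IL21 and IL10. ADAM17, the protease that can release IL6R from the cell surface, had 43.2 ± 1.96 CPM in DMSO, and rose to 127 ± 6.22 CPM under CCF642 and 116 ± 2.77 CPM under its analogue (SD, n = 2 each). Its log2 fold changes were 1.67 and 1.50 (limma adjusted p = 3.59e-29 and 4.36e-27). ADAM10, a related shedding protease, went the other way, from 316 ± 3.42 CPM to 179 ± 0.499 and 213 ± 3.19 CPM, and fell by 0.68 and 0.48 on the log2 scale (limma adjusted p = 1.05e-18 and 2.54e-13).

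Of 16 other cytokine receptor chains, 12 were listed, of which 4 rose and 6 fell with CCF642 and 4 rose and 5 fell with CCF642-34. Among all genes, 31.8% were higher and 31.3% lower with CCF642, and 29.7% and 27.9% with CCF642-34. The median log2 fold change of the list was -0.29 and -0.13, where that of all genes was -0.0066 and 0.0067. The interferon-gamma receptor chain IFNGR1 rose by 1.20 and 1.08 with CCF642 and CCF642-34, and the IL-10 receptor chain IL10RA by 1.01 and 0.69. The type I interferon receptor chain IFNAR2 fell by 0.73 and 0.58, its partner IFNAR1 fell by 0.48 and 0.25, and IL4R, a chain of the IL-4 receptor, fell by 0.31 and 0.66, all on the log2 scale. The IL4R decrease with CCF642 was not called without the first DMSO library (-0.24, limma adjusted p = 0.231), the second DMSO library (-0.38, limma adjusted p = 0.0507) or the first CCF642 library (-0.21, limma adjusted p = 0.229), nor by DESeq2 on the reads (-0.34, adjusted p = 0.104).

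All 7 other JAK and STAT genes were listed. With CCF642, 3 rose and 2 fell, and with CCF642-34, 1 rose and 4 fell, so that 5 were called each time, where 63.1% and 57.6% of all genes were. The median log2 fold changes were 0.065 and -0.25. STAT4 rose by 0.80 with CCF642 and had 0.082 with CCF642-34 (limma adjusted p = 0.247), and the direct difference was -0.72 (limma adjusted p = 9.99e-14). JAK3, the kinase of the common gamma chain, rose by 0.23 with CCF642 and fell by 0.41 with CCF642-34, and differed between the compounds by -0.64 (limma adjusted p = 1.12e-08). The JAK3 rise with CCF642 was not called with scaling by library size alone (0.099, limma adjusted p = 0.272), without the second DMSO library (0.20, limma adjusted p = 0.0992) or without the first CCF642 library (0.20, limma adjusted p = 0.0533). STAT6 rose by 0.65 and 0.31, while STAT5B fell by 0.58 and 0.45.

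Of 16 other inhibitors of the pathway, 14 were listed, of which 6 rose and 4 fell with CCF642 and 5 rose and 5 fell with CCF642-34, or 10 called each time, where 63.1% and 57.6% of all genes were. Their median log2 fold changes were 0.076 and -0.016. SH2B3, an adaptor that restrains JAK2, had the largest increases at 1.40 and 1.13, and SOCS7 rose by 0.56 and 0.46. The ubiquitin ligase gene CBL fell by 0.68 and 0.59 and SOCS5 fell by 0.54 and 0.52. No member of this list matched the 2.64 and 1.98 of SOCS3.

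IL-6 also signals through the RAS-MAPK and PI3K branches, for which 26 of 27 genes were listed. With CCF642, 9 rose and 11 fell, and with CCF642-34, 10 rose and 10 fell, with medians of -0.020 and -0.030 on the log2 scale, where 63.1% and 57.6% of all genes were called. The adaptor gene GAB2 rose by 1.43 and 1.14. The PI3K subunits went both ways. PIK3CA, named after its values were seen, rose by 0.41 and 0.29 (limma adjusted p = 1.08e-07 and 7.72e-05), PIK3CB fell by 0.53 and 0.35 and PIK3R1 fell by 0.23 and 0.37, while PIK3CD fell by 0.63 with CCF642 and had -0.16 with CCF642-34 (limma adjusted p = 0.321). SOS1, an exchange factor that loads RAS, fell by 0.16 and 0.37. The CCF642 values of PIK3R1 and SOS1 depended on single libraries: without the first CCF642 library they were -0.11 and -0.079 (limma adjusted p = 0.300 and 0.278), and without the first DMSO library they were -0.22 and -0.12 (limma adjusted p = 0.0829 and 0.174). PIK3R1 was also not called without the second DMSO library (-0.23, limma adjusted p = 0.0643).

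Of 23 genes known as STAT3 targets, 20 were listed, and 13 rose and 5 fell with CCF642, while 10 rose and 4 fell with CCF642-34. Of all genes, 31.8% rose and 31.3% fell with the former and 29.7% and 27.9% with the latter. Their median log2 fold change was 0.53 with CCF642 and 0.25 with CCF642-34. BCL6, counted as a rise with each compound, averaged only 1.25 ± 0.286 CPM in the vehicle libraries (SD, n = 2). This places both of them under the 1.505 CPM that every listed gene reached in some library. Like SOCS3, BCL6 is thus listed only through treated libraries, which limits the reading of the counts and medians of this list. CEBPB, which encodes a transcription factor of the acute phase and stress responses, increased most, at 3.48 and 3.22, followed by the AP-1 gene FOS at 2.83 and 2.09 for the 2 compounds. MYC, a growth-promoting transcription factor, fell from 459 ± 9.08 CPM to 101 ± 2.46 and 181 ± 0.285 CPM (SD, n = 2 each), by 2.04 and 1.25 on the log2 scale. BIRC5, which encodes survivin, fell by 1.01 and 0.82. These genes are also targets of other factors, and the list's name does not say which factor moved them. MCL1, a survival gene on the list that was singled out after its values were seen, rose from 743 to 1108 CPM with CCF642, a log2 fold change of 0.71, and was at 731 CPM with CCF642-34 (0.068, limma adjusted p = 0.106). Its direct difference was -0.64 (limma adjusted p = 1.08e-19).

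Between the compounds, 4 of the 20 STAT3 target genes were higher with CCF642-34 and 11 were lower, against 15.9% and 17.4% of all genes, with a median log2 difference of -0.25. The lower ones include FOS (-0.74, limma adjusted p = 1.45e-07) and CEBPB (-0.26, limma adjusted p = 0.0178), and the higher ones include MYC (0.79, limma adjusted p = 1.77e-19) and BIRC5 (0.19, limma adjusted p = 0.00887). The CEBPB difference was not called with scaling by library size alone (-0.21, limma adjusted p = 0.0509), without the first CCF642 library (-0.20, limma adjusted p = 0.126) or without the second CCF642-34 library (-0.19, limma adjusted p = 0.243), nor was that of BIRC5 without the first CCF642-34 library (0.16, limma adjusted p = 0.114). In each of these 4 genes the CCF642-34 level lay between those of DMSO and CCF642, as it did for PIM2 and SOCS3.

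PIM3 and known PIM substrates made up a list of 15 genes, all listed, of which 6 rose and 3 fell with CCF642, while 5 rose and 6 fell with CCF642-34, against 63.1% and 57.6% of all genes called. Median log2 fold changes were 0.024 and 0.046. CDKN1A, which encodes the cell cycle inhibitor p21, rose by 2.74 and 2.54, from 20.2 ± 0.890 CPM to 129 ± 8.25 and 115 ± 3.41 CPM (SD, n = 2 each). CXCR4, the chemokine receptor that keeps myeloma cells in the marrow, rose by 1.18 and 0.55, and EIF4EBP1, an inhibitor of cap-dependent translation, by 1.13 and 1.34. The phosphatase genes CDC25A and CDC25C, which drive the cell cycle, fell by 0.57 and 0.81 and by 0.70 and 0.53, in that order of compounds.

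**Figure D4:**
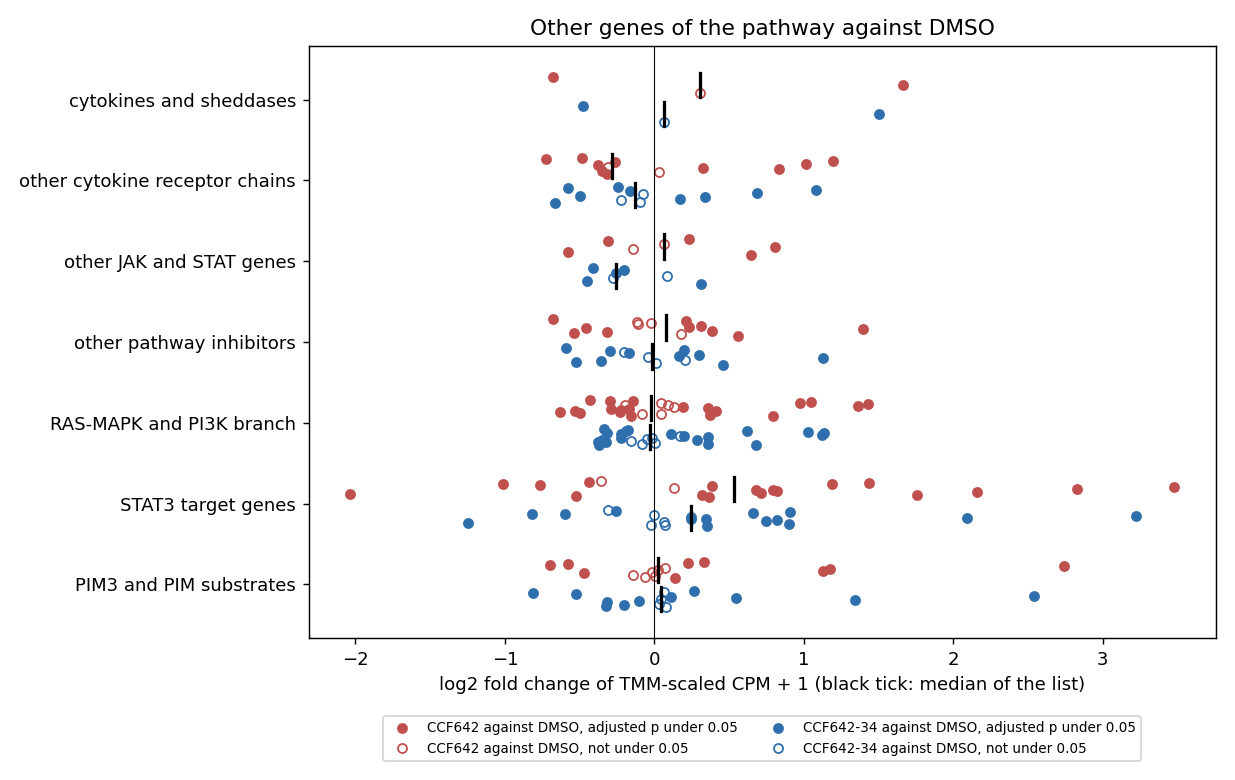
Log2 fold change against DMSO (horizontal axis, limma on log2(TMM-scaled CPM + 1)) of the listed genes in 7 pathway lists, with CCF642 in the upper row and CCF642-34 in the lower row of each list; filled points have an adjusted p under 0.05, open points do not, and black ticks are list medians. The STAT3 target genes have the highest medians of the 7 lists, 0.53 and 0.25, and spread from -2.04 to 3.48.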

How the data were processed

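Messenger RNA of MM1.S cells, captured on oligo(dT) beads, was turned into cDNA by random priming, and the protocol names no step that marks strand. The authors deposited CPM (the reads on a gene as a share of its library's reads, times a constant), for each of 6 libraries and 11048 gene symbols, with genes of low level left out, since every listed gene reaches 1.505 CPM or more in some library. The unit follows from the values themselves: multiplied back, 100% of values were whole reads within 0.01 reads. The submitters' processing notes name STAR, edgeR 3.24.3, limma 3.38.3 and build hg19 without saying which step each served, and the annotation and counting settings are not given in the sources used here. From a table of the whole series only the gene symbols were used, to check that the genes are listed. Its values were not compared with those used here.

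Samples were grouped by the labels. In R 4.3.3, limma 3.58.1 (eBayes with trend) was fitted to log2(TMM-scaled CPM + 1), all 3 groups in one fit with no block, two-sided, with Benjamini-Hochberg adjustment over all genes and a threshold of 0.05. A second criterion was 2-fold with an unadjusted p under 0.05. The fit was tested on simulated data. Alternatives were DESeq2 size factors, library size alone, pseudocounts of 0.1 and 4 CPM, a mean CPM of at least 5, edgeR 4.0.16 (quasi-likelihood) and DESeq2 1.42.0 on the recovered reads, a gene-wise linear model, a fit restricted to the pair of groups compared, a replicate block, and each library left out. The labels give no pairing of replicates. Depth was 20567313 to 28459677 reads a library.

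The 10 genes were named in full. For each list and compound, up to 2 called increases and 2 called decreases of largest size were named, and for the 3 genes with the widest range the 3 closest genes. Some genes that this rule selects are not reported here. The genes and lists were chosen with earlier results of these data known. Exon lengths and gene positions are from GENCODE on GRCh38 (10998 of 11048 symbols matched 1 gene), promoters from RefSeq on GRCh38.p14. The deposited build differs, so no coordinate was taken from the files.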

Additional observations from a re-analysis of the deposited data

How the results depend on the processing

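Over all alternatives and the 3 comparisons, 455 of the values recomputed for the 10 genes kept their direction and their side of the threshold, 12 were no longer called, 4 were newly called and 6 changed sign. The gene-wise linear model, which estimates each gene's spread from 3 residual degrees of freedom alone, moved the counts most. With CCF642-34 against DMSO it called 3 of the 10 genes lower (5 in limma), losing IL6ST and TYK2, and 4108 of all genes (6362). With CCF642-34 against CCF642, 7 of the 10 genes and 3408 of all 11048 genes had an unadjusted p under 0.05 in this model. The model called 1 of the 10 genes higher (IL6R) and 0 lower (2 and 6 in limma), and 739 of all genes (3685). Of the list genes named with a call against DMSO, it also lost IL4R, PIK3R1, SOS1 with CCF642, PIK3R1 and CDC25C with CCF642-34, and PIK3CB with both, and of the direct differences printed for list genes, FOS, CEBPB and BIRC5.

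Scaling by library size alone shifted the median of all genes (log2) to -0.13 for CCF642 against DMSO, -0.078 for CCF642-34 against DMSO and 0.051 for the direct comparison, and the share of called genes that were higher to 34.8%, 38.6% and 61.8% (50.4%, 51.6% and 47.8% in limma with TMM). Under it TYK2 turned to -0.10 with CCF642 and STAT4 to -0.0067 with CCF642-34. With CCF642 against DMSO, TYK2 ranged from -0.014 (without DMSO replicate 1) to 0.080 when single libraries were left out, and was also -0.0097 without CCF642 replicate 1. With CCF642-34 against DMSO, JAK2 ranged from -0.14 to 0.065 (without CCF642-34 replicate 1). In the direct comparison, such leaving out gave -0.091 to 0.11 for JAK2 (below 0 also at -0.011), -0.018 to 0.36 for CDC25C, and -0.092 to 0.13 for SOCS5 (below 0 also at -0.0098). For none of these sign changes was the cause tested. The filter at a mean CPM of 5 left 9390 genes and removed SOCS1. On the recovered reads, edgeR called 3498 genes higher and 3434 lower for CCF642 against DMSO, 3324 and 3116 for CCF642-34 against DMSO, and 1764 and 1960 in the direct comparison.

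Groups share only a replicate number: deviations of same-numbered libraries correlated at -0.047, -0.077 and 0.11. With a replicate block, 7014, 6422 and 3802 of all genes were called (6974, 6362 and 3685 without), and 7, 9 and 8 of the 10 genes as before. SOCS1 and SOCS3 in DMSO rest on 18 to 60 reads a library, which limits the precision of their folds.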
